A study of Rattus norvegicus with 10 samples.

Results

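IGHV5-31 is a gene segment of the rat immunoglobulin heavy chain variable region, and its reads are described here across 10 immunized rats. Its members are the productive reads (an open reading frame without a stop codon) for which IGHV5-31 was the first gene named in the sequence annotation. They number 137410 of 1615896 productive reads, or 8.50%. The reads were chosen by their assigned V gene, and the gene itself was selected with earlier results of the same data known. Its level and its usage between the antigens are therefore given as a description, and nothing is supported with them.

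The series holds heavy chain variable domains read from spleen cell RNA of Wistar rats, 5 immunized with recombinant human HuD, a neuronal RNA binding protein, and 5 with dinitrophenol groups on a keyhole limpet hemocyanin carrier (DNP). All 10 received the first dose in complete Freund's adjuvant and boosts in incomplete adjuvant, so adjuvant and tissue were common to both antigens, the animals were littermates, and no unimmunized animal was included. Wistar is an outbred strain, and the age of the animals was not given in the sources used here. Reads were collapsed by a molecular tag, and each collapsed read counts once.

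A heavy chain variable domain is joined in each B cell from 1 V, 1 D and 1 J segment. The V segment carries the frameworks FR1 to FR3 and the loops CDR1 and CDR2, and the joint forms CDR3, the most variable loop and often the centre of the antigen contact. During an immune response B cells that bind antigen divide into clones and acquire somatic mutations in the whole domain. A frequent CDR3 may therefore stand for an expanded clone or for a cell rich in immunoglobulin RNA, and these cannot be told apart in RNA of a whole spleen.

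The CDR3 with the most IGHV5-31 reads in each animal was as follows, shown because each is the largest single contribution to the reads of its animal.
DNP1: ARDQRLQWDYFDY
DNP2: TSNPHIRTAAPFDY
DNP3: AIYFYSGDNWFGY
DNP4: ARGSGTYYWYFDF
DNP5: ASGFGWFAY
HuD1: TGPFDY
HuD2: TRGGFYRY
HuD3: TRGGYFRY
HuD4: TRVDTMGTEDY
HuD5: TRGTYFRH
All letters are amino acids, and a CDR3 of 15 residues or more is given by its length alone. In all 5 HuD animals and in DNP2 the leading CDR3 began with T, and in the other 4 DNP animals it began with A. DNP2 stood apart from the other DNP animals in its V segment residues and in the CDR3s it shared, as described below, and results that rest on it are given with and without it.

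The level of IGHV5-31 varied from animal to animal within each antigen. Of productive reads it made up 4.43% (DNP1), 12.1% (DNP2), 9.28% (DNP3), 5.80% (DNP4) and 4.43% (DNP5). In the HuD animals it made up 9.95% (HuD1), 8.74% (HuD2), 11.6% (HuD3), 5.56% (HuD4) and 12.8% (HuD5). DNP1 and DNP5 were the lowest and lay within each other's 95% Clopper-Pearson intervals, which cover counting error only and were widest in DNP3 at 9.05% to 9.52%. The gene ranked first among 141 IGHV genes in HuD5 and took rank 10 in DNP5, its lowest.

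The antigens overlapped in this level, with means of 9.74% ± 2.80 (SD, n = 5) for HuD and 7.21% ± 3.38 (SD, n = 5) for DNP. The log2 fold of HuD over DNP was 0.12 with a standard error of 0.58, with an adjusted p of 0.896 in edgeR's quasi-likelihood test over 81 IGHV genes. In that fit 2 of the 81 genes, or 2.47%, were called at an adjusted p under 0.05, and IGHV5-31 was not called in it or under any of 17 alternatives, in which its adjusted p lay between 0.549 and 0.995. Without DNP2 the log2 fold was 0.35, with an adjusted p of 0.590 in the same edgeR test, and 30 genes were called. The number called was 0 without HuD1, without HuD4 or without HuD5.

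**Figure D1:**
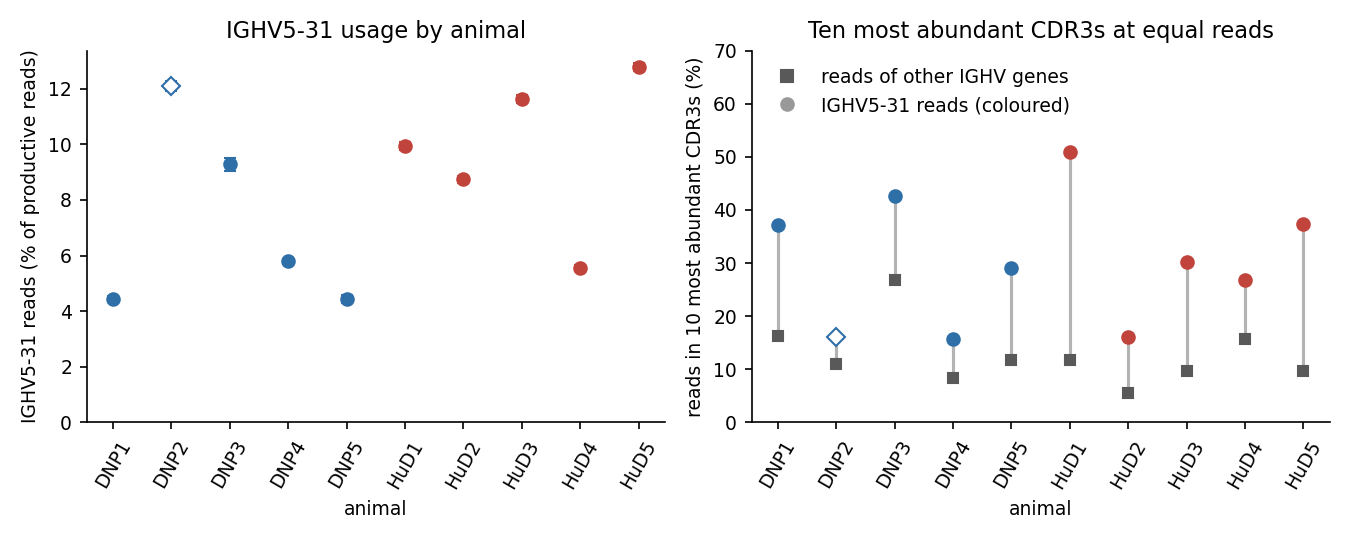
Left, IGHV5-31 reads as a percentage of productive reads in each animal, with 95% Clopper-Pearson intervals that are mostly smaller than the symbols (HuD red, DNP blue, DNP2 as an open diamond). Right, the percentage of reads in the 10 most abundant CDR3s for IGHV5-31 (coloured) and for all other IGHV genes pooled (grey squares). Both were thinned to the same number of reads, and IGHV5-31 lies above the pooled genes in 10 of 10 animals.

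The genes whose usage followed IGHV5-31 most closely over the 10 animals were IGHV2-17 (Pearson r of log2(RPM + 10) 0.739), IGHV2S63 (0.690) and IGHV5-43 (0.689), a description with no test over libraries that share their depth. The IGHV2S63 reads numbered 5, 2, 13 and 1 in DNP1, DNP3, DNP4 and DNP5, and 1224 in DNP2. In the HuD animals they numbered 418 to 2121. IGHV5-43 was at 0 reads in DNP1, DNP3, DNP4 and DNP5, had 51 in DNP2 and 69 to 322 in the HuD animals. IGHV2-17 had few reads, 86 in DNP2, 3 in DNP4, 0 in the other DNP animals, and 2, 7, 50, 8 and 81 in HuD1 to HuD5. IGHV2S63 and IGHV5-43 were thus higher in DNP2 and the HuD animals than in the other 4 DNP animals, while IGHV2-17 was no higher in HuD1 than in DNP4.

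Within its V segment, IGHV5-31 occurred with 2 sets of residues that divided the animals. In DNP2 and in all 5 HuD animals most reads had G, A, N and S at positions 11, 45, 58 and 85 of the IMGT numbering of variable domains, and T at position 59 was the most frequent residue except in HuD5. In DNP1, DNP3, DNP4 and DNP5 the most frequent residues at the same positions were D, V, S and N, with S at position 59. Written as changes from the first set, with the position counted in that numbering, they are G11D (FR1), A45V (FR2), N58S and T59S (CDR2) and S85N (FR3).

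Valine at position 45 was read in 92.4% of the IGHV5-31 reads of DNP1, 93.7% of DNP3, 88.5% of DNP4 and 95.03% of DNP5. In DNP2 it was read in 0.374%, and in the HuD animals in 0.138% to 1.76%. Aspartate at position 11 was read in 81.6%, 92.0%, 72.9% and 86.8% of reads of DNP1, DNP3, DNP4 and DNP5, in 0.367% of DNP2 and in at most 0.951% of a HuD animal. Positions 58 and 59 divided the animals in the same way, with 56.03% to 66.6% and 63.8% to 83.0% of reads with serine in those 4 animals and at most 4.84% and 9.86% in any of the other 6. Position 85 divided them less sharply, since asparagine was read in 64.1% to 83.1% of reads of the 4 animals but also in 20.2% of DNP2 and 6.84% to 39.8% of the HuD animals.

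Reads with at least 3 of the 5 residues were common only in the same 4 animals. They numbered 5620 of 6174 in DNP1, 5323 of 5630 in DNP3, 11858 of 15059 in DNP4 and 3763 of 4064 in DNP5. There were 51 such reads of 14975 in DNP2 and 8 to 42 in each HuD animal. All 5 residues were in 1 read less often, in 41.0%, 32.3%, 21.5% and 33.5% of the reads of DNP1, DNP3, DNP4 and DNP5, and whether they fell on the same reads more often than their single shares give was not tested. With each combination of CDR3 and IGHJ gene counted once, 73.5% to 90.3% of the combinations in the 4 animals had at least 3 of the 5 residues, against 0.106% to 0.403% in the other 6.

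Among reads of the other IGHV5 genes, aspartate at position 11 together with valine at position 45 was found in at most 0.566% in any animal. No germline sequence was used, and whether the residues are germline or mutated was not tested. Because 4 of 5 DNP animals and no HuD animal carried the second set, differences in V segment residues between the antigens cannot be told apart from this difference between animals.

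**Figure D2:**
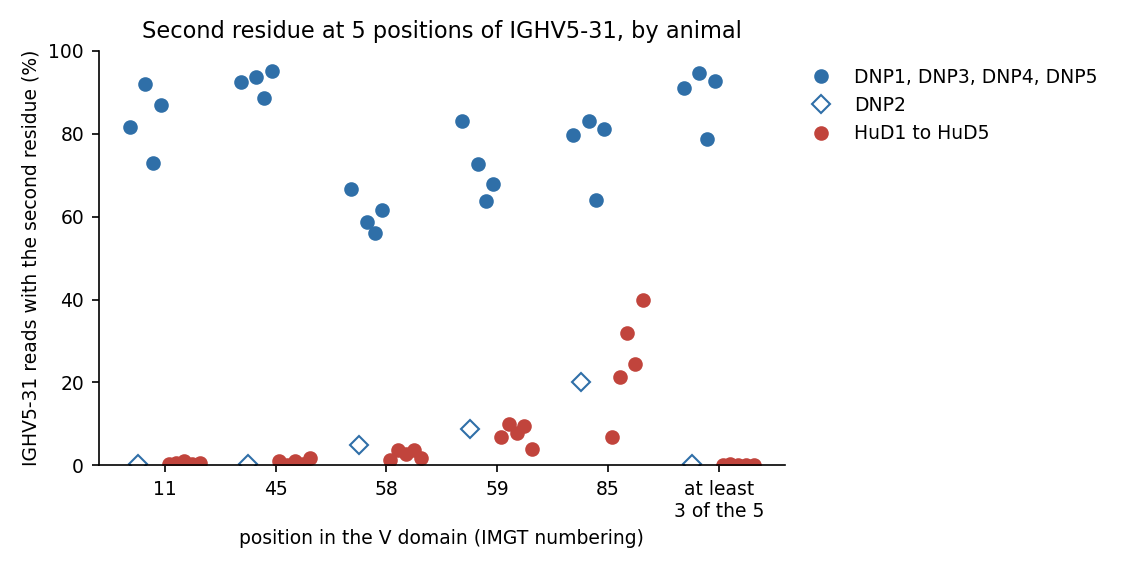
The vertical axis gives the percentage of IGHV5-31 reads with the second residue (aspartate, valine, serine, serine and asparagine) at positions 11, 45, 58, 59 and 85, and at the right the percentage with at least 3 of these 5, 1 point an animal. DNP1, DNP3, DNP4 and DNP5 (filled blue) lie between 78.7% and 94.5% at the right, and DNP2 (open diamond) and the HuD animals (red) at or under 0.341%.

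DNP2 carried a further set of residues of its own. Its most frequent CDR1 was GFIFSNYW, with 6173 reads or 41.2% of its IGHV5-31 reads, whereas GFTFNNYW was the most frequent CDR1 in each of the other 9 animals at 29.5% to 70.1%. GFIFSNYW was read in at most 0.0984% of the reads of any other animal. It was joined to 2379 different CDR3s in DNP2, or 52.6% of those of that animal, of which the largest, TSNPHIRTAAPFDY, made up 7.42% of its reads. In these DNP2 reads proline at position 12 (L12P) was found in 81.8%, aspartate at 63 (G63D) in 72.4% and serine at 68 (P68S) in 70.4%, against 19.3%, 27.04% and 23.5% of the other DNP2 reads. Reads with at least 5 of the 6 changes L12P, T29I, N35S, G63D, P68S and T77S numbered 4759 in DNP2, 2 in DNP5 and 0 in the other 8 animals, where a count of 0 allows up to 3 reads. Singly these changes were also read elsewhere. The highest shares were 10.6% (L12P, DNP5), 14.3% (T29I, DNP3), 18.4% (N35S, DNP4), 17.6% (G63D, HuD4), 5.81% (P68S, DNP4) and 6.04% (T77S, HuD4). This set was noticed in the reads of DNP2 and is described without a test.

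The frequent CDR2 sequences followed the same division. ITNTGGST was read in 12.1% of IGHV5-31 reads in DNP2 and 8.11% to 28.2% in the HuD animals, but in at most 0.0492% in DNP1, DNP3, DNP4 and DNP5. ITSSGGST was read in 13.3%, 13.3%, 19.7% and 22.1% of reads of those 4 animals and in at most 0.0665% of any of the other 6. The other frequent CDR2 sequences belonged to single animals. ITNASGGT (17.9%) and ITNASGRT (13.3%) were read in HuD5, and ITNTGRNT (20.2%) in HuD3, with at most 0.176% in any other animal. Of the other frequent CDR1 sequences, GFTFNYYW reached 18.2% in HuD5 and 6.87% in DNP4, while GFTFNKYW (at most 8.87%, in DNP4) and GFTFSNYW (at most 10.2%, in DNP1) were spread over the animals of both antigens.

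Position by position, the shares of other residues were highest in CDR2, with a median over its positions of 28.5%, against 6.35% in CDR1, 3.45% in FR3, 2.61% in FR2 and 1.24% in FR1. The 10 most variable positions were 59, 85, 64, 58, 45, 11, 63, 92, 57 and 68, and 5 of them are the positions above. Outside those 5, serine at position 64 was replaced in 50.8% of reads on average over the 10 animals, most often by asparagine (S64N). Any residue other than the most frequent was read at position 63 in 30.1%, at 92 in 29.5%, at 57 in 26.8% and at 68 in 23.6% on average, where the next residues were those of G63D, N92D, T57S and P68R. G63D itself was read in 45.7% of reads of DNP2 and 2.92% to 17.6% of the other 9 animals, and in DNP2 the most frequent change at position 68 was P68S, in 42.8%.

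None of 75 positions (0%) was called between HuD and DNP at an adjusted p under 0.05, where the smallest adjusted p of the exact permutation tests was 0.248. At an unadjusted p under 0.05, 13 of the 75 passed. The antigens did not overlap at 1 position, 37 in CDR1, where a residue other than tyrosine (most often phenylalanine, Y37F) was read in 8.03% to 15.7% of reads in the DNP animals and 2.33% to 6.75% in the HuD animals. The exact permutation p there was 0.00794, the smallest that 5 against 5 animals allow, and its adjusted p was 0.248. With 75 positions a call needs many positions at this smallest p, and 1 reached it. The lack of calls therefore does not show that the residues were alike.

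The number of residues in FR1 to FR3 that differed from the most frequent residue over all animals was lower with HuD, at 4.09, 6.21, 6.09, 6.10 and 7.81 a read in HuD1 to HuD5. The DNP animals had 10.4, 8.27, 10.6, 10.6 and 11.05 a read in DNP1 to DNP5. The means were 6.06 ± 1.32 and 10.2 ± 1.11 (SD, n = 5 each), and the difference of -4.14 residues had an exact permutation p of 0.00794 and an adjusted p of 0.0397 over 10 measures. This reference is the first set of residues above, from which reads of DNP1, DNP3, DNP4 and DNP5 differ at up to 5 positions. With each animal's own most frequent residue as the reference, the difference was -1.42 residues with an adjusted p of 0.132 in the same exact permutation test, so the call was lost. Without DNP2 the difference from the common reference was -4.63, and with any 1 animal left out it was -4.63 to -3.65 with an exact permutation p of 0.0159, the smallest that 5 against 4 animals can give.

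CDR3 length differed between the antigens when each read was counted. The mean over IGHV5-31 reads was 12.4, 12.3, 12.7, 12.4 and 12.1 residues in DNP1 to DNP5, and 9.88, 11.5, 10.8, 11.4 and 10.7 residues in HuD1 to HuD5. Every HuD animal lay below every DNP animal. The difference of the means was -1.56 residues (10.8 ± 0.633 and 12.4 ± 0.214, SD, n = 5 each), with an exact permutation p of 0.00794 and an adjusted p of 0.0397 over 10 measures. DNP2, which had the HuD animals' residues, had a CDR3 length within the range of the other DNP animals, and without it the difference was -1.59 with an adjusted p of 0.0529 in the exact permutation test. With any 1 animal left out the difference was -1.72 to -1.32 residues, and the exact permutation p was 0.0159, the smallest that 5 against 4 animals can give, for each. After adjustment over 10 measures these came to 0.0529 to 0.0794, a loss that the size of the test gives.

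CDR3s of up to 8 residues took 41.6% of IGHV5-31 reads in HuD5 and 33.3% in HuD3, 12.3% to 18.8% in the other HuD animals, 16.3% in DNP2 and 3.77% to 10.97% in the other DNP animals. With each combination of CDR3 and IGHJ counted once, the mean length was 11.5 to 12.4 residues in HuD and 11.9 to 12.5 in DNP animals, and the difference was -0.287 residues with an adjusted p of 0.267 in the exact permutation test. The CDR3s of other IGHV genes in the same animals averaged 11.98 ± 0.364 residues with HuD and 11.7 ± 0.555 with DNP. IGHV5-31 CDR3s were shorter than those of the other genes in 5 of 5 HuD animals (by 1.16 residues on average) and longer in 4 of 5 DNP animals (by 0.667). The difference between these differences, -1.82 residues, had an exact permutation p of 0.00794 and an adjusted p of 0.0714 over 9 measures, a comparison added after the values were seen.

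**Figure D3:**
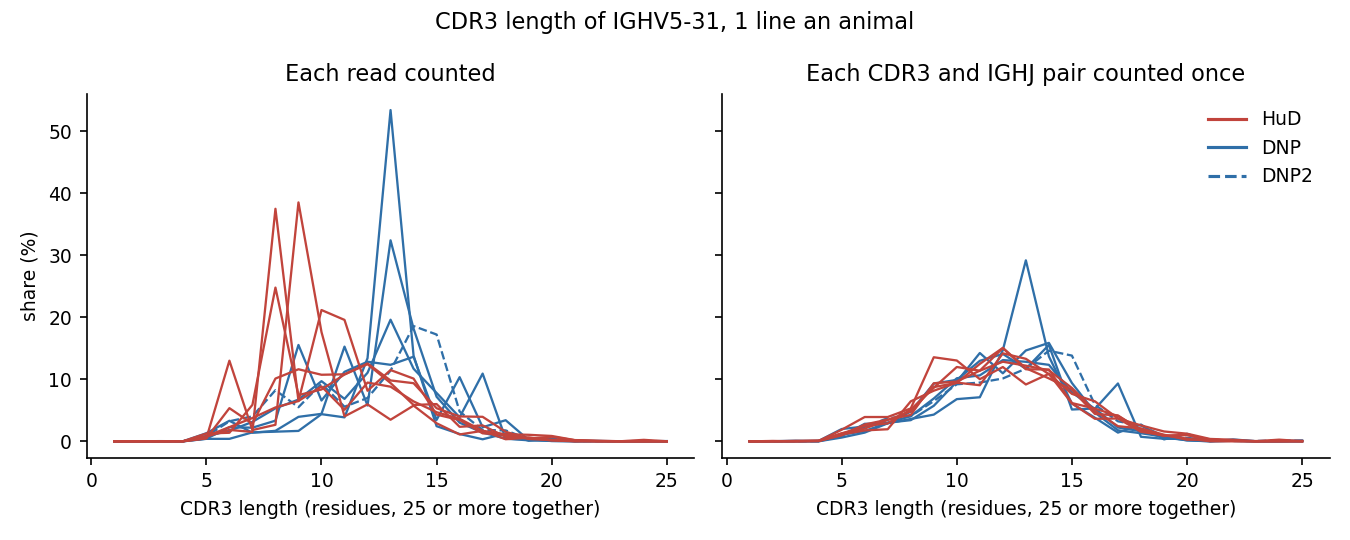
Distribution of CDR3 length in residues for IGHV5-31, as a percentage of reads (left) and of combinations of CDR3 and IGHJ gene (right), 1 line an animal (HuD red, DNP blue, DNP2 dashed). By reads the commonest length was 8 residues in HuD3 and HuD5, 9 in HuD1 and 13 in DNP1, DNP3 and DNP4, and by combinations the lines of both antigens lie closer together.

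IGHJ2 was the J segment most often joined to IGHV5-31, except in DNP3 where IGHJ3 led. Its share was 55.1%, 62.98%, 62.9%, 64.6% and 72.2% in HuD1 to HuD5 and 37.2%, 58.8%, 22.1%, 42.4% and 51.8% in DNP1 to DNP5. Of the HuD animals only HuD1 lay below a DNP animal, DNP2. The means were 63.6% ± 6.10 and 42.5% ± 14.1 (SD, n = 5 each), and the exact permutation p of 0.0159 came to an adjusted p of 0.0529, which missed the threshold. Without DNP2 the difference was 25.2 percentage points, against 21.1 with it, and the adjusted p of the exact test was again 0.0529. IGHJ1 showed the opposite order, 5.77% ± 2.22 with HuD and 14.6% ± 7.64 with DNP, with an exact permutation p of 0.0556 and an adjusted p of 0.139. Counted once per combination of CDR3 and IGHJ, the share of IGHJ2 was 53.8% ± 3.79 with HuD and 47.2% ± 4.34 with DNP, and that of IGHJ1 9.89% ± 0.867 and 10.7% ± 1.39 (SD, n = 5 each).

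IGHJ3 took 52.8% of the reads of DNP3, against 18.4% to 26.5% in the other DNP animals, and IGHJ4 took 5.74% to 20.7% over all animals. Neither was called, with adjusted p of 0.488 and 0.413 in the exact permutation tests. IGHD1-1, a D segment, was named in 52.4% of the reads of DNP3, in 16.6% of DNP1, in 14.9% of HuD3 and in 4.93% to 7.85% of the other 7 animals. With each combination of CDR3 and IGHJ counted once it was named in 26.2% of DNP3 and 6.52% to 8.99% of the other animals. Net charge of the CDR3 (K and R minus D and E) was -0.0728 ± 0.451 with HuD and -0.334 ± 0.247 with DNP (SD, n = 5 each), with an adjusted p of 0.488 in the exact permutation test.

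**Figure D4:**
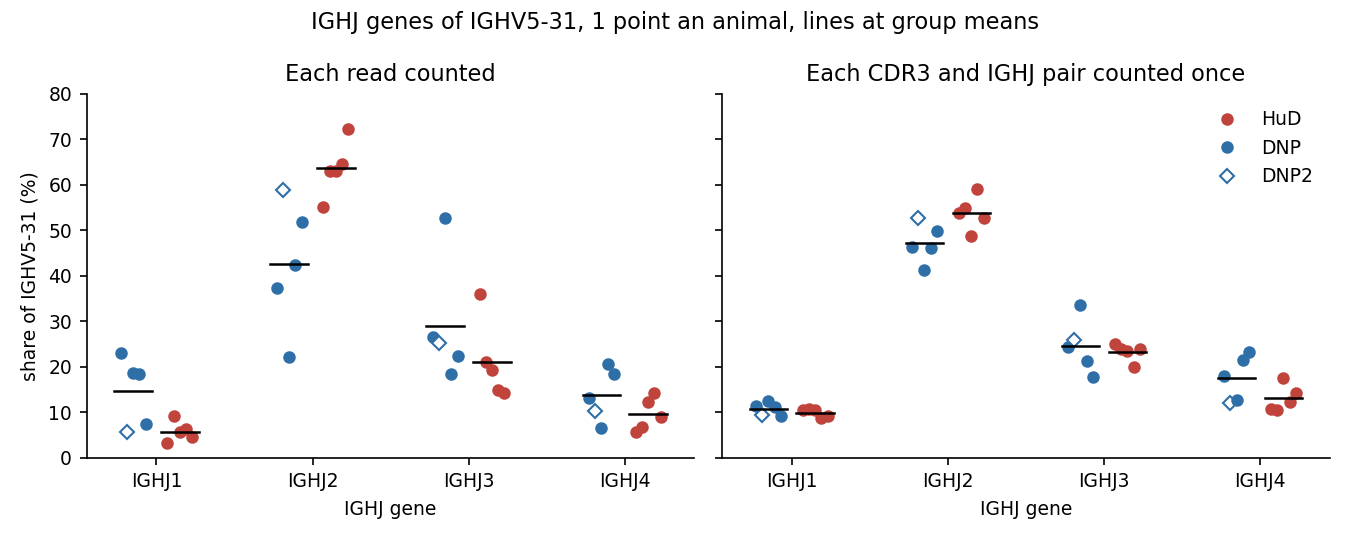
Share of the 4 IGHJ genes among IGHV5-31 reads (left) and among combinations of CDR3 and IGHJ gene (right), 1 point an animal, with black lines at the means of 5 animals (HuD red, DNP blue, DNP2 as an open diamond). On the left the IGHJ2 share ranges from 55.1% to 72.2% in HuD and from 22.1% to 58.8% in DNP animals.

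IGHV5-31 reads were more concentrated in a few CDR3s than the pooled reads of all other genes of the same animal. At equal numbers of reads the 10 most abundant CDR3s took 37.1%, 16.1%, 42.6%, 15.7% and 29.2% of reads in DNP1 to DNP5, and 50.9%, 16.1%, 30.3%, 26.8% and 37.4% in HuD1 to HuD5. For the other genes the shares were 5.46% to 26.8%. The mean was 30.2% against 12.6%, a difference of 17.6 ± 10.2 percentage points (SD, n = 10) in the same direction in 10 of 10 animals, with an exact sign-flip permutation p of 0.00195 and an adjusted p of 0.00586 over 9 measures. The most abundant CDR3 alone took 9.13% against 2.41%, and unique CDR3s at equal reads numbered 3114 against 3860, each in the same direction in 10 of 10 animals with the same adjusted p of 0.00586 in the exact test. With only the reads of at least 2 copies the difference in unique CDR3s was -237 and the call was lost, with an adjusted p of 0.0879 in the exact test. Between the antigens none of these 3 measures was called, with adjusted p of 0.697, 0.697 and 0.976 in exact permutation tests.

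The comparison with all other genes sets 1 gene beside many. Against 3 single genes of the same subgroup, IGHV5-7, IGHV5-20 and IGHV5-29, the picture was smaller. Unique CDR3s at equal reads were fewer than with IGHV5-20 by 309 ± 281 (SD, n = 10; lower in 10 of 10 animals), with an adjusted p of 0.0234 over 12 exact sign-flip permutation tests. With only the reads that name 1 IGHV gene the difference was -171 and the call was lost, with an adjusted p of 0.0820 in the same exact test. Against IGHV5-7 (-129 ± 254, n = 10) and IGHV5-29 (-63.6 ± 292, n = 9, since DNP3 had too few reads) the adjusted p was 0.333 and 0.816 in the exact tests. CDR3 length, IGHJ2 and residues that differ were not called against any of the 3 genes.

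Most abundant CDR3s of IGHV5-31 were also read with other V genes in the same animal, which bears on every comparison with other genes. Of the IGHV5-31 reads of an animal, 81.6% to 91.4% had a CDR3 that also occurred with another IGHV gene there, as did each of the 10 most abundant CDR3s in each animal. For TRGGYFRY, 5779 of 7138 reads (81.0%) named IGHV5-31 and the others were spread over 28 further genes. Reads for which IGHV5-31 was the gene with most reads for their CDR3 made up 55.1% (DNP2) to 89.0% (HuD1) of IGHV5-31 reads. With these alone, the difference in CDR3 length between HuD and DNP was -2.34 residues with an adjusted p of 0.0397 in the exact permutation test. The difference in the 10 most abundant CDR3s against other genes was 28.4 percentage points. This choice keeps CDR3s by their number of reads with IGHV5-31 and can itself raise that share, so nothing is supported with the 28.4 points. How a CDR3 came to be read with several genes was not tested.

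The abundant CDR3s of the HuD animals held a related group of 8 residues. TRGGYFRY had 3737 reads in HuD3, or 19.1% of that animal's IGHV5-31 reads, and 1978 in HuD5 (7.45%), 63 in HuD4 and 1 in DNP2. It was read in 1024 different variable domains in HuD3 and 711 in HuD5, with 5.39 and 7.64 sequenced copies a read, against 1.16 to 2.44 over all IGHV5-31 reads of an animal. The molecular tag was short, so molecules of such an abundant CDR3 may have been merged, which was not tested. TRGTYFRH had 2242 reads in HuD5 and 2 in DNP2, and TRGGFYRY had 706 reads in HuD2, 178 in HuD3 and 23 in HuD5. CDR3s within 2 residues of TRGGYFRY took 27.03% of the IGHV5-31 reads of HuD5 (7171 reads in 60 CDR3s), 22.8% of HuD3 (4457 reads in 35 CDR3s) and 0.791% of HuD4, while HuD2 had 746 such reads and HuD1 had 19. DNP2 had 12, and the other 4 DNP animals had 0. At least 98.8% of these reads in each HuD animal were joined to IGHJ2.

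The V segments joined to this group differed between the 2 animals that held most of it. In HuD3 glutamate at position 84 was read in 94.4% of them, against 17.8% of the other IGHV5-31 reads of that animal, and in HuD5 in 0.293%, where glutamine was read in 61.3% against 17.9%. Alanine at position 59 was read in 83.5% of the group in HuD5 and 22.4% in HuD3, against 41.7% and 5.73% of the other reads of these animals. Threonine at position 82 was read in 61.4% in HuD3 and 57.7% in HuD5, against 9.995% and 13.1% of the other reads. These residues were picked after their values were seen and are given without a test.

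Most other leading CDR3s were read in 1 animal. TARFDWFAY had 1399 reads in HuD1 and none elsewhere, TRVDTMGTEDY 924 in HuD4, ARDQRLQWDYFDY 605 and AARYSSSWFAY 431 in DNP1, TTQWELYH 495 in HuD2, TRGGNYALDA 384 in HuD4, TRAYPGPRGDY 373 in HuD3, and TRQLGLDY 352 in DNP2. TGPFDY had 1541 reads in HuD1 and 32 in HuD4. Within the DNP group, AIYFYSGDNWFGY (712 reads in DNP3, joined to IGHJ3 in 99.4% of reads) had 78 CDR3s within 2 residues, and this group took 33.5% of the IGHV5-31 reads of DNP3, with 4 reads in DNP4, 1 in DNP5 and 1 in HuD5. CDR3s within 2 residues of ARGSGTYYWYFDF took 6.45% of the reads of DNP4 (972) and 8.001% of those of DNP1 (494). None of these reads was joined to IGHJ2, and ARGSGTYYWYFDF itself was joined to IGHJ1 in each of its 843 reads. The remaining leading CDR3s were TREGRDDWYFDF (268 reads in DNP3), ARGGRSYFDY (339 in DNP4), ASGFGWFAY (364 in DNP5) and a CDR3 of 16 residues (131 in DNP5).

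Of 30604 different IGHV5-31 CDR3s, 30189 (98.6%) were found in 1 animal and 415 in 2 or more, and those 415 held 18.8% of the reads. None was found in more than 7 animals. The CDR3s in 2 or more animals averaged 9.39 residues and those in 1 animal 12.3. Found in 2 or more HuD and in no DNP animal were 183 CDR3s, and in 2 or more DNP and no HuD animal 97, where the HuD animals also had more CDR3s in all (2053 to 5525 against 978 to 4522). Of the 135 CDR3s found with both antigens, 85 had DNP2 as the one DNP animal. DNP2 also had the most IGHV5-31 CDR3s of the DNP animals, 4522 against 4087 in DNP4 and 978 to 1429 in DNP1, DNP3 and DNP5. Whether 85 is more than this gives was not tested.

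TRGPPFDY was found in 7 animals with 72 reads, 56 of them in HuD3. TRENWVLDY (203 reads) and ARPDY (99 reads) were found in 6, ARPDY in all 5 DNP animals and with 1 read in HuD2. ARENYYSGDY, TRKYTTDYYWYFDF, TRDGGY, ASLNYGRYY, ARQRGDYFDY and ARHNSGYFDY were found in 5 animals each, with 10 to 108 reads. Some of these were more often read with other genes, since 2.53% of all ARPDY reads and 57.5% of all TRENWVLDY reads named IGHV5-31.

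The CDR3s found in most HuD animals and no DNP animal were TRENWVFDY (129, 22, 17 and 244 reads in HuD2 to HuD5), ARHNSGYGVMDA (48 reads), ARHGIYNNYGWFAY (34), TRENYYSADY (34) and ATSPYYWYFDF (17), in 4 animals each. TRENWVFDY and TRENWVLDY, which was also in DNP2 (61 reads) and DNP4 (9 reads), differ at 1 residue. For DNP they were AIYYYSGDNWFGY (220, 1 and 1 reads in DNP3 to DNP5), GRDLGGDY (121 reads, of which 1 was in DNP3, 15 in DNP5 and the others in DNP4), TTDAAY (36 reads), GRDNWGFDY (10) and AKPDY (8), in 3 animals each. These lists were made by presence and absence and are not tested.

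Overlap was measured for each of 45 pairs of animals as the geometric mean of the shares of IGHV5-31 reads whose CDR3 both animals had. A CDR3 with 1 read in an animal therefore enters with all its reads in the other. Its median was 5.15% over the 10 pairs of HuD animals, 1.24% over the 10 pairs of DNP animals and 0.131% over the 25 mixed pairs, 3 of which had no CDR3 in common. HuD3 and HuD5 overlapped most at 23.1%, followed by DNP3 and DNP4 at 12.8%. The value of DNP3 and DNP4 rests in part on CDR3s with 1 read in either animal. ARGSGTYYWYFDF had 842 reads in DNP4 and 1 in DNP3. TREGRDDWYFDF had 268 and AIYYYSGDNWFGY 220 in DNP3, with 1 each in DNP4. On the scale of -log10(overlap + 1e-05) the mixed pairs were farther apart than pairs with the same antigen by 1.22, with a one-sided exact permutation p of 0.00794, the smallest that the divisions of 10 animals into 2 groups of 5 can give.

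DNP2 overlapped more with each HuD animal than with DNP1, DNP3 or DNP4. Its median overlap was 2.56% with the HuD animals and 0.589% with the other DNP animals. Its 5 pairs with HuD animals overlapped by 1.16% to 6.499% (14 to 38 CDR3s in common), above all 20 mixed pairs of the other DNP animals, which reached 0.758% at most. The 2 largest, with HuD3 and HuD5 (6.499% and 6.39%), rest in part on CDR3s with few reads in DNP2. TRGGYFRY had 1 read in DNP2 against 3737 in HuD3 and 1978 in HuD5, and TRGTYFRH 2 against 2242 in HuD5. Overlap without such CDR3s was not tested. Its pairs with DNP1, DNP3 and DNP4 overlapped by 0.265%, 0.158% and 0.913%, and that with DNP5 by 7.30%. Without DNP2 the difference was 1.67, again with a one-sided exact permutation p of 0.00794. Since the other 4 DNP animals shared the second set of residues, the antigen and the set of residues cannot be told apart in the overlap between animals.

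**Figure D5:**
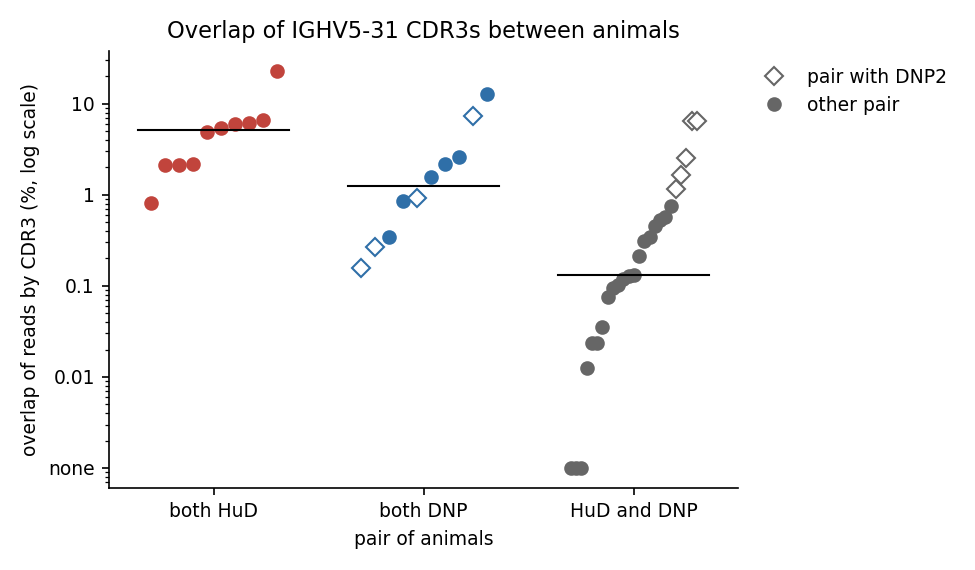
Overlap of IGHV5-31 reads by CDR3 for 45 pairs of animals on a log scale, with pairs that include DNP2 as open diamonds and black lines at the medians (5.15%, 1.24% and 0.131%). The 3 mixed pairs with no common CDR3 are drawn at the foot of the axis, and the 5 mixed pairs with DNP2 lie above the other 20.

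The first residue of the CDR3 differed between the same animals. Alanine was read there in 76.98%, 70.2%, 74.8% and 75.8% of the IGHV5-31 reads of DNP1, DNP3, DNP4 and DNP5, 42.5% of DNP2 and 10.3% to 38.9% of the HuD animals. Threonine was read in 10.4% to 15.3% of reads in those 4 animals, 49.9% in DNP2 and 54.4% to 83.6% in the HuD animals. With each combination of CDR3 and IGHJ counted once the order stayed, with alanine at 66.03% to 72.6% in the 4 animals and 30.0% to 51.0% in the other 6. Reads of the 4 animals with under 3 of the 5 residues had alanine in 61.5% to 73.6%, against 70.1% to 77.8% of those with 3 or more. The 51 reads of DNP2 with 3 or more had it in 25.5%. Reads with 0 or 1 of the 5 residues made up only 0.764% to 6.24% of the reads of the 4 animals. Most of their reads with under 3 therefore still had more than 1 of the 5. Whether the first residue of the CDR3 followed the set of residues within an animal was thus not tested.

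Identical sequences in different animals were few above the level of the CDR3. Of 96409 different variable domains with IGHV5-31, 46 were found in 2 or 3 animals. Of 137392 pairs of molecular tag and CDR3, 18 were found in 2 animals. A read that named IGHV5-31 together with another gene was also uncommon (1182 reads, 0.860%), most often with IGHV5-58 (532 reads), IGHV5S13 (340) or IGHV5-7 (161). Sequenced copies per IGHV5-31 read were above those of the whole library in HuD5 (2.44 against 1.55), HuD3 (1.98 against 1.45) and HuD1 (1.43 against 1.40), and below it in the other 7 animals.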

How the data were processed

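Files with 1 line per collapsed read, deposited by the authors for each of 10 animals, gave the IMGT-gapped amino acid sequence, the V, D and J genes and the copy number of sequenced reads. The authors made cDNA with primers in the heavy chain constant domains that carried a molecular tag, amplified it with multiplex primers at the 5′ end, sequenced all libraries in 1 run, merged the reads, collapsed them by tag (minimum of 1 read) and annotated them with IMGT/HighV-QUEST. The copy numbers are deposited as counts, without normalization, and one molecule may be counted more than once, so intervals cover counting error only. According to the paper the tag proved too short, and part of the CDR3 was used as a further tag. Molecules with the same CDR3 may therefore have been merged, with fewer reads and more copies a read, which was not tested. Libraries held 60647 to 259834 productive reads (81.1% to 91.1% of lines).

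The members and the lists were chosen with earlier results of these data known. Reads were taken by the first IGHV gene named, and gene names are those of the annotation. V gene usage was tested on read counts with edgeR 4.0.16 (TMM, quasi-likelihood, genes with at least 100 reads), with DESeq2 1.42.0 and limma 3.58.1 as alternatives. Measures per animal were compared by exact permutation over the animals, two-sided unless stated, with Benjamini-Hochberg adjustment. Thinned values are means of 10 seeded draws. Labels name the animals but not their relation, and animals are the replicates. Named CDR3s are the 2 most abundant per animal, the 10 in most animals and, for each antigen, the 5 in most of its animals and none of the other, and named positions are the 10 with most other residues. Residue sets, related CDR3 groups and the comparison of differences were added after values were seen. The tests across genes and positions were also run on simulated data. For positions these data lacked the linked residues and the large spread between animals seen here, so nothing is supported with them. No germline or genome was used.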

Additional observations from a re-analysis of the deposited data

Results flagged for a closer look

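In 67 groups of 5 animals over 37 measures, 21 values of single animals stood apart from the other 4 of their antigen by Dixon's test at its 95% critical value, and 10 of them were of DNP2. Chance flags about 1 in 20 groups where measures are picked without regard to the values. That rate does not apply to the 5 residues and their count, which were picked after the values of DNP2 were seen. Nor does it apply to the first residue of the CDR3, which was not among the planned measures. CDR1 and CDR2 sequences and D segments were taken for their high shares, which 1 animal can raise, so it does not apply to them either. DNP2 had 8.27 differing residues a read in FR1 to FR3 (the other DNP animals 10.4 to 11.05), 0.367% of reads with aspartate at position 11, 0.374% with valine at 45, 4.84% with serine at 58, 8.82% with serine at 59 and 0.341% with at least 3 of the 5 residues (the others 78.7% to 94.5%). At the first residue of the CDR3 it had 42.5% alanine and 49.9% threonine, and 41.2% of its reads had the CDR1 GFIFSNYW and 12.1% the CDR2 ITNTGGST.

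DNP3 stood apart by 52.8% of reads with IGHJ3 and 52.4% with IGHD1-1, DNP4 by 6.87% with the CDR1 GFTFNYYW, and DNP1 by 10.2% with GFTFSNYW. HuD1 had 7.47% of reads with GFTFSNYW and 2.65% with IGHD1-2 (the other HuD animals 6.35% to 7.66%). HuD3 had 14.9% with IGHD1-1 and 20.2% with the CDR2 ITNTGRNT. HuD5 had 18.2% with GFTFNYYW, 17.9% with ITNASGGT and 13.3% with ITNASGRT.

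The unproductive reads, which enter no comparison, held the same division of the animals. IGHV5-31 reads with a stop codon or a frame shift had at least 3 of the 5 residues in 309 of 367 reads in DNP1, 236 of 280 in DNP3, 848 of 1213 in DNP4 and 221 of 297 in DNP5. There were 7 of 2185 in DNP2, and 11, 10, 15, 9 and 13 in HuD1 to HuD5, of 1470 to 2927 reads.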

How the results depend on the processing

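The 2 IGHV genes called between HuD and DNP by edgeR became 14 with DESeq2, 16 with limma on log2(RPM + 10) and 0 with unique CDR3s counted in place of reads. They numbered 0 to 30 with 1 animal left out, 30 without DNP2 and 0 without HuD1, HuD4 or HuD5. The log2 fold of IGHV5-31 was -0.26 (without HuD3) to 0.44 (without DNP3) and was not called.

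With the replicate number as a block (replicate block), 13 IGHV genes were called and the log2 fold of IGHV5-31 was 0.28. Animals with the same number deviated together with r of -0.144 to 0.289, over 0.1 in 1 of 5 pairs, and 1 of 5 correlated best with its own number. The labels state no pairing and these 5 values cannot settle it, so the numbers were taken as names only.

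With each combination of CDR3 and IGHJ counted once, the differences between HuD and DNP in CDR3 length (-0.287 residues) and differing residues (-4.38) were no longer called. Several differences that were not called changed sign, namely CDR3 length against other reads (0.0767), IGHV5-7 (0.0686) and IGHV5-20 (0.226), IGHJ4 against other reads (0.448 percentage points), and IGHJ2 against IGHV5-7 (-0.781), IGHV5-20 (-2.63) and IGHV5-29 (-0.288). With reads of at least 2 copies, calls were lost for CDR3 length (-2.97) and differing residues (-1.89) between HuD and DNP and for unique CDR3s against other reads (-237), and unique CDR3s between HuD and DNP were -22.8. CDR3 length there also kept the exact permutation p of 0.00794, with an adjusted p of 0.0794. With each animal's own most frequent residues as the reference, the difference in differing residues was -1.42 and not called. With reads that name 1 gene, unique CDR3s against IGHV5-20 were -171 and not called. With reads of the gene that has most reads for their CDR3, chosen after seeing the data, unique CDR3s between HuD and DNP were -24.0, IGHJ3 against other reads was -0.485 percentage points, and differing residues against IGHV5-7 were called at 2.04. Where the smallest possible p was kept, the call was lost in the adjustment alone. The cause was not tested for the others.

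With 1 animal left out, HuD minus DNP was -1.72 to -1.32 residues for CDR3 length and -4.63 to -3.65 for differing residues, with an adjusted p of 0.0529 to 0.0794, and each had the smallest p that an exact permutation test of 9 animals can give (0.0159), so this loss of the calls says nothing on stability. Unique CDR3s were -109 to 146, the most abundant CDR3 -0.506 to 3.37 and the 10 most abundant -0.475 to 8.23 percentage points. Against other reads IGHJ1 was -0.395 to 2.08, IGHJ2 -4.05 to 3.14 and IGHJ3 -2.64 to 2.81 percentage points. Against IGHV5-7 CDR3 length was -0.421 to 0.0622, IGHJ2 -0.300 to 6.69 and differing residues 1.57 to 2.31, called only without HuD1. Against IGHV5-20 CDR3 length was -0.233 to 0.158 and IGHJ2 -0.798 to 4.85, and IGHJ2 against IGHV5-29 was -0.737 to 4.49.

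The difference in CDR3 overlap kept its direction and its side of the threshold under each alternative run, as did the top CDR3 shares against other reads. Keeping reads of the gene that has most reads for their CDR3 can itself raise these shares. These shares were compared with the pooled reads of other genes only, and not with single genes. Depth of 60647 productive reads in DNP3 and 91649 in DNP5 limits the detection of rare CDR3s in common, and 62.2% to 76.5% of the CDR3s of an animal had 1 read. With 5 animals an antigen, calls rest on p-values near the smallest that exact tests allow. Whether residues are germline or mutated was not tested.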
